A study of Mus musculus with 9 samples.

Results

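The genes described here encode the proteins of the mitochondrial ribosome in mouse hippocampus. They were chosen by symbol: after the RefSeq rows of a gene were summed, symbols beginning with Mrpl or Mrps and a digit were taken, and genes with a mean under 10 counts over the 6 SAE and CTL libraries were dropped. Of 78 such symbols, 54 genes remained, 39 named Mrpl and 15 named Mrps. They stand among 22846 genes with at least 1 count.

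The study sequenced ribosomal-RNA-depleted total RNA from the hippocampus of adult, specific-pathogen-free BALB/c mice, with 3 libraries in each of 3 groups. CCLF libraries came from mice that had cecal ligation and puncture (CLP, in which gut contents leak into the abdomen and cause sepsis) and received Cuscuta chinensis flavonoids at 200 mg/kg. SAE libraries came from mice with CLP alone, and CTL libraries from sham-operated mice. Sex, the time after surgery and the dosing schedule are not given in the labels. The labels call the libraries of a group biological duplicates and name no animal for each. P-values measure the spread between these libraries.

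The mitochondrial ribosome translates the few respiratory-chain subunits that mitochondrial DNA encodes. Its RNAs come from mitochondrial DNA, but all of its proteins are encoded in the nucleus, made in the cytosol and imported. The large subunit joins amino acids and the small subunit reads the message. Some of these proteins have counterparts in bacterial ribosomes and others occur only in mitochondria. Neurons depend on mitochondria for most of their energy. The 13 rows of mitochondrially encoded proteins, the products of this ribosome, were listed at 0 in every library, where 3 counts would have been 0.648 CPM (counts scaled to the library total) in the smallest library.

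Library totals ran from 4626519 to 4895474 counts. Slc17a7, the vesicular glutamate transporter of forebrain excitatory neurons, had 29600 to 30405 counts in SAE libraries and 26508 to 26920 in CTL libraries, while the synaptic gene Syt1 was near 0. Lcn2, an acute-phase gene induced in systemic inflammation, had 13, 14 and 6 counts in SAE libraries, against 13816, 14822 and 13246 in CTL libraries, which goes against those labels. CCLF libraries had 6791, 9635 and 4524 Lcn2 counts. Group names below are therefore those of the labels: "SAE" is the library labelled CLP alone and "CTL" the library labelled sham, and each direction rests on those labels.

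Markers of other cells also differed between SAE and CTL libraries. All 5 tested of 7 microglial markers were higher in SAE libraries, and the summed level of the list was 693 to 761 CPM in SAE libraries and 420 to 551 CPM in CTL libraries, with P2ry12 near 0. All 4 tested of 7 oligodendrocyte markers were higher, at a summed 511 to 582 CPM in SAE libraries and 232 to 248 CPM in CTL libraries. Of the 3 tested of 5 endothelial markers, 2 were higher and 1 lower, with sums of 419 to 449 CPM in SAE libraries and 292 to 329 CPM in CTL libraries and with Pecam1 and Slco1a4 near 0. Of the 4 tested of 6 choroid plexus markers 1 was higher, with sums of 529 to 1063 CPM in SAE libraries and 304 to 501 CPM in CTL libraries and with Folr1 and Slc4a5 near 0. Of the 6 astrocyte markers, all tested, 1 was higher and 4 lower, with sums of 3398 to 3514 CPM in SAE libraries and 3217 to 3499 CPM in CTL libraries. Of the 8 tested of 10 hippocampal neuron markers, 3 were higher and 1 lower, with sums of 11239 to 11530 CPM in SAE libraries and 9851 to 10158 CPM in CTL libraries. The 4 markers of muscle and fat summed to at most 2.16 CPM in SAE libraries and 2.04 CPM in CTL libraries. The part of these differences in the ribosomal genes' values was not tested. In bulk tissue, fewer cells of a type and less RNA per cell cannot be told apart.

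The rule kept genes very unevenly by how RefSeq lists them. All 37 Mrp genes that have a single RefSeq row were kept, with a median of 408 counts per gene over SAE and CTL libraries. Of the 41 genes with several rows only 17 were kept, 41.5%, and their median before the drop was 3.83 counts. Among all coding genes, 43.8% of 7993 genes with 1 row and 22.6% of 13907 genes with several rows reached a mean of 10. Counts sat on 1 or 2 rows in most of the 17 genes, and in 10 of them the fullest row was a predicted or non-coding RefSeq record rather than a curated messenger RNA.

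The 24 dropped genes include well-known members of both subunits. In 9 of them every library was listed at 0: Mrpl2, Mrpl10, Mrpl22, Mrpl55, Mrps10, Mrps18b, Mrps24, Mrps27 and Mrps36. Several of these are core components of the ribosome, and a listed 0 is not read as absence of the message. Just inside the limit lay Mrpl4, Mrpl23 and Mrpl14 with means of 12.7, 12.8 and 13.3 counts, and just outside it Mrps12, with 8.83, and Mrps2 and Mrps33, each with 4.33. All 54 genes that remained also passed the filter of the fit.

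**Figure D1:**
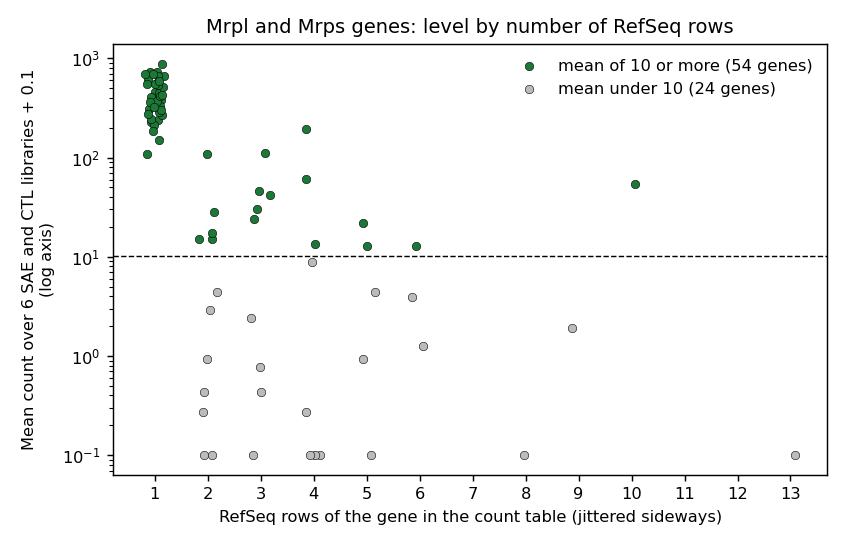
Mean count over the 6 SAE and CTL libraries plus 0.1, on a log axis, against the number of RefSeq rows, for 78 Mrpl and Mrps genes, each a point shifted sideways to separate points; the dashed line is the limit of 10 counts. Every gene with 1 row lies above the line, while 24 of the 41 genes with several rows lie below it.

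As a whole, the family took much the same share of the RNA in both groups, while single genes differed in both directions. Its share of all counts was 0.353 to 0.359% in SAE libraries and 0.350 to 0.359% in CTL libraries. Of the 54 genes, 12 were higher in SAE libraries and 14 lower at an adjusted p under 0.05 (quasi-likelihood test of edgeR, p adjusted by Benjamini-Hochberg over 8213 tested genes). Those 26 genes are 48.1% of the 54, beside 47.6% of all tested genes, of which 23.7% were higher and 23.9% lower. A share this near to the background is not a result about this gene family. Without CTL replicate 1, 17 of the 54 were called, 8 higher and 9 lower, beside 40.8% of all tested genes. The median log2 fold, SAE minus CTL, was -0.06 over the 54 genes and 0.00 over all tested genes. The median size of the fold without its sign was 0.24 on the log2 scale, against 0.37 over all tested genes.

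Few of the differences were large. Called changes of more than 2-fold were found in 3 of the 54 genes, Mrps9, Mrpl39 and Mrpl45, all with several RefSeq rows and few counts, while 16.5% of all tested genes had such changes. In 30 genes the fold lay within 0.25 on the log2 scale in either direction. The values of the SAE and CTL libraries did not overlap in 30 genes, 12 of them higher and 18 lower in SAE libraries, which is 55.6% and equals the 55.6% found over all tested genes. Among the 37 genes with 1 RefSeq row, 10 were higher and 10 lower, 54.1% in all, beside 54.3% of all tested genes of that kind. Among the 17 with several rows, 2 were higher and 4 lower, 35.3%, beside 38.4%.

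**Figure D2:**
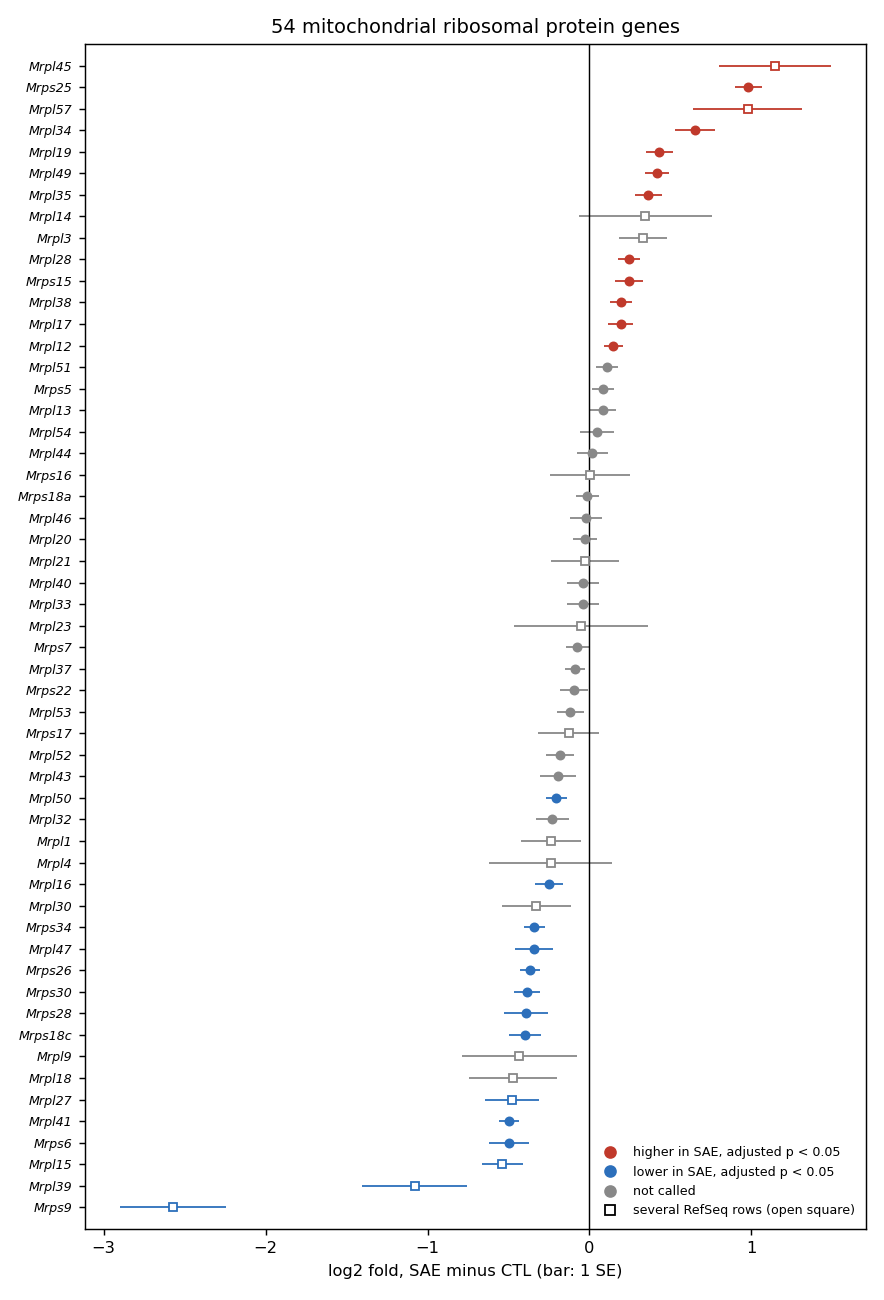
Log2 fold, SAE minus CTL, with a bar of 1 SE, for the 54 genes in order of the fold; red marks genes higher and blue genes lower in SAE libraries at an adjusted p under 0.05, grey the rest, and open squares genes with several RefSeq rows. The 12 higher and 14 lower genes lie on both sides of a middle group near 0, and Mrps9, at -2.57, is the farthest from it.

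The promoters of 6 genes are shown because these genes carry the results below: Mrps25, Mrpl34 and Mrpl49 were among those higher in SAE libraries, and Mrpl41, Mrps26 and Mrps9 among those lower. Each runs 5′ to 3′ on the gene's own strand, from 250 bases before the annotated start to 50 bases after it, from RefSeq on build GRCm38.p6. Capitals mark matches to 4 motifs searched on both strands: GCGCATGC for nuclear respiratory factor NRF1, CCGGAAG for the ETS factor GABPA, AAGATGGC for YY1 and GGGCGG for the GC box of Sp1. NRF1, GABPA and YY1 are known regulators of nuclear genes for mitochondrial proteins. The windows are chr6:92183974-92184273, minus strand, for Mrps25, chr8:71464676-71464975, plus strand, for Mrpl34, and chr19:6057706-6058005, minus strand, for Mrpl49. For Mrpl41 the window is chr2:24975049-24975348, minus strand, for Mrps26 chr2:130563507-130563806, plus strand, and for Mrps9 chr1:42850983-42851282, plus strand.
Mrps25: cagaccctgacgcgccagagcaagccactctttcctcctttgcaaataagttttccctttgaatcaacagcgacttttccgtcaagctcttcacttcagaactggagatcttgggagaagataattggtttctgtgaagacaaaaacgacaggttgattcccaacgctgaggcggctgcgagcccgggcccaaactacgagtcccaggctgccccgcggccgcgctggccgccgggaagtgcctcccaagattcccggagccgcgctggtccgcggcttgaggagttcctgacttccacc
Mrpl34: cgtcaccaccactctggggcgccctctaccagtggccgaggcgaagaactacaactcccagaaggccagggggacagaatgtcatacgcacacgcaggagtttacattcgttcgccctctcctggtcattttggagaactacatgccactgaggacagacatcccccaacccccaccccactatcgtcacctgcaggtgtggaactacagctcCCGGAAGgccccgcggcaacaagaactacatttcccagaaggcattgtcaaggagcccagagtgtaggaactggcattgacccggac
Mrpl49: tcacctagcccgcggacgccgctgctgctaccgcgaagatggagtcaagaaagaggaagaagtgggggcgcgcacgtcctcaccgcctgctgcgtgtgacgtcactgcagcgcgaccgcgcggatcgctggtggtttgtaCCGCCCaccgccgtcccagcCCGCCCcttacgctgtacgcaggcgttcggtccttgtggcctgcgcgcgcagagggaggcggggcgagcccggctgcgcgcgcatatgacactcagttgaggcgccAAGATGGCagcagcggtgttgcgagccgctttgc
Mrpl41: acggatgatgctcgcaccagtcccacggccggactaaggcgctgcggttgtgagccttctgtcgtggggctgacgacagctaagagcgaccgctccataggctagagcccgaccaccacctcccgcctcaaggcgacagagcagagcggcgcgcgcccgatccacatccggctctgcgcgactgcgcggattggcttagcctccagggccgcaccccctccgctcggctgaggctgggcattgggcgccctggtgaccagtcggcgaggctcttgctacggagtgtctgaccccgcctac
Mrps26: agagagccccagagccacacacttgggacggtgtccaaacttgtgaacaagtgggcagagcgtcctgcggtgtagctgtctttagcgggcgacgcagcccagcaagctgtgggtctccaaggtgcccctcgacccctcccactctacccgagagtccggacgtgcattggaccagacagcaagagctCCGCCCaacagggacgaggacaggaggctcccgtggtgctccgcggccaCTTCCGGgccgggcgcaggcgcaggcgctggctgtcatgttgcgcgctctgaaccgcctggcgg
Mrps9: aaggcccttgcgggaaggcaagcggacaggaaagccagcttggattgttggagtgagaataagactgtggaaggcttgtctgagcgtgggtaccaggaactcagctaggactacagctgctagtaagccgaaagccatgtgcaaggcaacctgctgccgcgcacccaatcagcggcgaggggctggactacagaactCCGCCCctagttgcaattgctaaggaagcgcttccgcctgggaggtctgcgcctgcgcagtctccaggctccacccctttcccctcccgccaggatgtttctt

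In these windows Mrps25 and Mrpl41 hold none of the 4 motifs. Mrpl34 holds the GABPA letters on its own strand, Mrps26 holds them on the opposite strand together with a GC box, Mrpl49 holds the YY1 letters and 2 GC boxes, and Mrps9 holds 1 GC box. Promoters were found for 46 of the 54 genes. The GABPA letters occurred in 17 of the 46, 37.0%, against 9.12% of all 27025 promoters in the table. The YY1 letters occurred in 6, 13%, against 2.88%, and the NRF1 letters in 5, 10.9%, against 2.80%. The GC box occurred in 23, 50%, against 35.9%. These promoters had a median GC content of 58.3%, against 52.7% over all promoters, and no matching for GC content was made.

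Whether motif counts differ between the called genes of either direction was not tested. Of the 10 higher genes with a promoter, 3 held the GABPA letters, 2 the YY1 letters, 1 the NRF1 letters and 4 the GC box. Of the 11 lower genes with a promoter, 3 held the GABPA letters, 1 the NRF1 letters and 4 the GC box, and the YY1 letters were in 0 of 11. A match describes letters in the window and is not a binding site.

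Of all tested genes, 47.6% were called between SAE and CTL libraries, 23.7% higher and 23.9% lower in SAE libraries. In the large subunit, 10 of 41 genes were higher in SAE libraries and 8 lower, 43.9% in all, with a median log2 fold of -0.04. This count places Mrps30 and Mrps18a, which are named for the small subunit, in the large subunit, where structures of the mammalian ribosome locate them. Of the 32 genes of both subunits with bacterial counterparts, 7 were higher and 8 lower, 46.9% in all. Of the 22 counted as found only in mitochondria, 5 were higher and 6 lower, 50% in all. Those 22 include Mrps18a, a paralogue of Mrps18c, which is counted with the 32. Differences between these classes were not tested.

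Among the large-subunit proteins that bacteria share, Mrpl34, a small basic protein, had 201, 170 and 183 counts in SAE libraries, against 106, 119 and 124 in CTL libraries. It was higher in SAE libraries by a log2 fold of 0.65 ± 0.12 (SE, n = 3 libraries a group; adjusted p = 0.000109, edgeR), and all 3 SAE values lay above all CTL values. Mrpl19 had 515, 484 and 546 counts in SAE libraries, against 324, 414 and 396 in CTL libraries, a log2 fold of 0.43 ± 0.08 with an adjusted p of 0.000109. Mrpl35 had 456, 427 and 503 counts in SAE libraries, against 357, 338 and 369 in CTL libraries, a log2 fold of 0.36 ± 0.08 with an adjusted p of 0.000662. Neither gene's groups overlapped, and the same was true of Mrpl28. Mrpl28 had 623, 582 and 620 counts in SAE libraries, against 486, 534 and 503 in CTL libraries (log2 fold 0.25 ± 0.07, adjusted p = 0.00402).

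Mrpl12 belongs to the flexible stalk that recruits translation factors, and in human cells it is also known to bind the mitochondrial RNA polymerase. It had 752, 765 and 782 counts in SAE libraries, against 631, 708 and 715 in CTL libraries. The log2 fold of 0.15 ± 0.06 passed narrowly, with an adjusted p of 0.0483. It passed in only 3 of 15 alternative fits, with adjusted p between 0.0154 and 0.207.

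Mrpl15, a core protein of the large subunit, went the other way. It had 131, 188 and 158 counts in SAE libraries, against 231, 238 and 216 in CTL libraries, a log2 fold of -0.54 ± 0.12 with an adjusted p of 0.00096. The groups did not overlap. Mrpl27, whose bacterial counterpart reaches the site of peptide bond formation, had 99, 76 and 96 counts in SAE libraries, against 124, 155 and 95 in CTL libraries. Its groups overlapped through the CTL library with 95 counts, and its log2 fold was -0.48 ± 0.17 with an adjusted p of 0.0204. Without SAE replicate 2, CTL replicate 1 or CTL replicate 2 that p was 0.116, 0.0657 or 0.159.

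Among the large-subunit proteins found only in mitochondria, Mrpl49 was higher in SAE libraries, with 636, 572 and 669 counts, against 439, 444 and 509 in CTL libraries. The groups did not overlap, and the log2 fold was 0.42 ± 0.07 with an adjusted p of 5.49e-05. Mrpl45 lies at the exit of the ribosome's tunnel and is known to tie it to the inner membrane. It had 19, 21 and 23 counts in SAE libraries, against 7, 9 and 12 in CTL libraries, a log2 fold of 1.14 ± 0.35 with an adjusted p of 0.00824. DESeq2's Wald test gave it an adjusted p of 0.0532. Mrpl57 had 19, 22 and 19 counts in SAE libraries, against 10, 9 and 11 in CTL libraries, a log2 fold of 0.98 ± 0.34 with an adjusted p of 0.0202. These groups did not overlap either, but the adjusted p of Mrpl57 reached 0.104 with DESeq2's Wald test, and was 0.07 without SAE replicate 2 and 0.0685 without CTL replicate 2.

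Mrpl41, which is also known as a binding partner of the apoptosis regulator BCL2, was lower in SAE libraries. It had 603, 568 and 650 counts in SAE libraries, against 784, 862 and 896 in CTL libraries. The gap between the groups was wider than the spread within either, and the log2 fold was -0.50 ± 0.06 with an adjusted p of 5.65e-07. Mrps30, also described as a programmed cell death protein, had 349, 394 and 362 counts in SAE libraries, against 443, 467 and 519 in CTL libraries, a log2 fold of -0.39 ± 0.08 with an adjusted p of 0.000385. Mrpl39 had 12, 11 and 19 counts in SAE libraries, against 38, 30 and 20 in CTL libraries, a log2 fold of -1.08 ± 0.32 with an adjusted p of 0.00745. The groups nearly met, at 19 and 20 counts, and without CTL replicate 1 its adjusted p was 0.0746. Mrps18a, one of 3 paralogues of a single bacterial protein, had 538, 511 and 568 counts in SAE libraries, against 525, 571 and 518 in CTL libraries, with a log2 fold of -0.01 ± 0.07 and an adjusted p of 0.891.

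**Figure D3:**
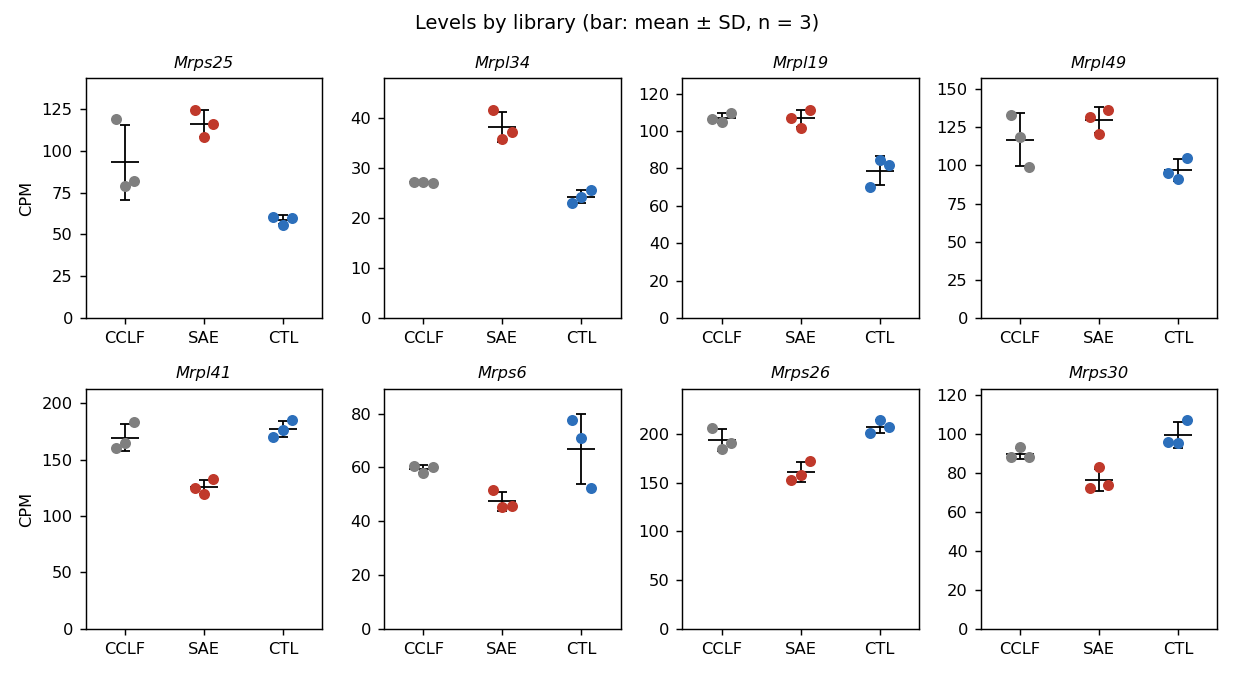
Level in CPM, scaled by library total and TMM factor, of 8 genes in each CCLF, SAE and CTL library, with the mean and SD of 3 libraries as bars; each axis starts at 0. SAE points lie above all CTL points for Mrps25, Mrpl34, Mrpl19 and Mrpl49, and below them for Mrpl41, Mrps6, Mrps26 and Mrps30.

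In the small subunit 2 of 13 genes were higher in SAE libraries and 6 were lower, with a median log2 fold of -0.13. That is 61.5% of the 13, beside 47.6% of all tested genes, where 23.7% were higher and 23.9% lower. Whether the split in the small subunit differs from that of the large subunit was not tested. Mrps25, a protein found only in mitochondria, had the smallest p of all 54 genes. It had 600, 514 and 568 counts in SAE libraries, against 280, 272 and 290 in CTL libraries. The lowest SAE value stood far above the highest CTL value, and the log2 fold was 0.98 ± 0.08 with an adjusted p of 4.44e-10. Its level was 116 ± 8.18 CPM in SAE libraries and 58.7 ± 2.71 CPM in CTL libraries (SD, n = 3 each).

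Mrps9, a shared protein of the subunit's head, had 11, 3 and 12 counts in SAE libraries, against 38, 59 and 58 in CTL libraries. Its log2 fold of -2.57 ± 0.33, with an adjusted p of 6.13e-07, was the largest change among the 54 genes, but it rests on few counts. Mrps6 had 248, 215 and 223 counts in SAE libraries, against 357, 346 and 254 in CTL libraries, a log2 fold of -0.50 ± 0.12 with an adjusted p of 0.00284. One CTL library, with 254 counts, lay close to the SAE values and well below the other two. In the bacterial ribosome the counterpart of Mrps6 pairs with that of Mrps18c. Mrps18c had 225, 256 and 300 counts in SAE libraries, against 320, 344 and 354 in CTL libraries, a log2 fold of -0.40 ± 0.10 with an adjusted p of 0.00162. The third paralogue, Mrps18b, was listed at 0 in every library.

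Mrps26, found only in mitochondria, had the most counts of the 54 genes, 738, 748 and 845 in SAE libraries, against 925, 1045 and 1006 in CTL libraries. The groups did not overlap, and its log2 fold was -0.37 ± 0.06 with an adjusted p of 1.89e-05. Mrps28 had 95, 87 and 103 counts in SAE libraries, against 121, 128 and 121 in CTL libraries, a log2 fold of -0.39 ± 0.14 with an adjusted p of 0.0202. Without SAE replicate 1 or 2 the adjusted p of Mrps28 was 0.0542 or 0.0898, and without CTL replicate 1 or 2 it was 0.0596 or 0.0506.

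Counts grow with transcript length, so genes were also set side by side per kilobase, with GENCODE lengths, for the 37 genes with 1 RefSeq row. On that scale Mrpl41 was at 162 CPM per kilobase in SAE libraries and 228 in CTL libraries. Mrps25, whose transcript is long, was at 19.1 CPM per kilobase in SAE libraries and 9.67 in CTL libraries. Per length, Mrps25 was the lower of the pair in both groups.

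The other 7 called genes had folds of under 0.35 on the log2 scale in either direction: Mrps15, Mrpl38 and Mrpl17 were higher by 0.24, 0.20 and 0.19 on the log2 scale, and Mrpl47, Mrps34, Mrpl16 and Mrpl50 had log2 folds of -0.34, -0.34, -0.25 and -0.20. Of the 26 called genes, 14 were called in the same direction in every alternative fit that gave them a value. The 6 of these that were higher are Mrps25, Mrpl34, Mrpl19, Mrpl49, Mrpl35 and Mrpl28, and the 8 lower ones are Mrps9, Mrpl15, Mrpl41, Mrps6, Mrps18c, Mrps26, Mrps30 and Mrps34. The 28 genes not called include 17 with 1 RefSeq row, and the 95% interval of the log2 fold of each of these 17 stayed within 0.43 of 0. Precision differed by kind of gene: the median SE was 0.08 on the log2 scale for genes with 1 row and 0.27 for genes with several.

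**Figure D4:**
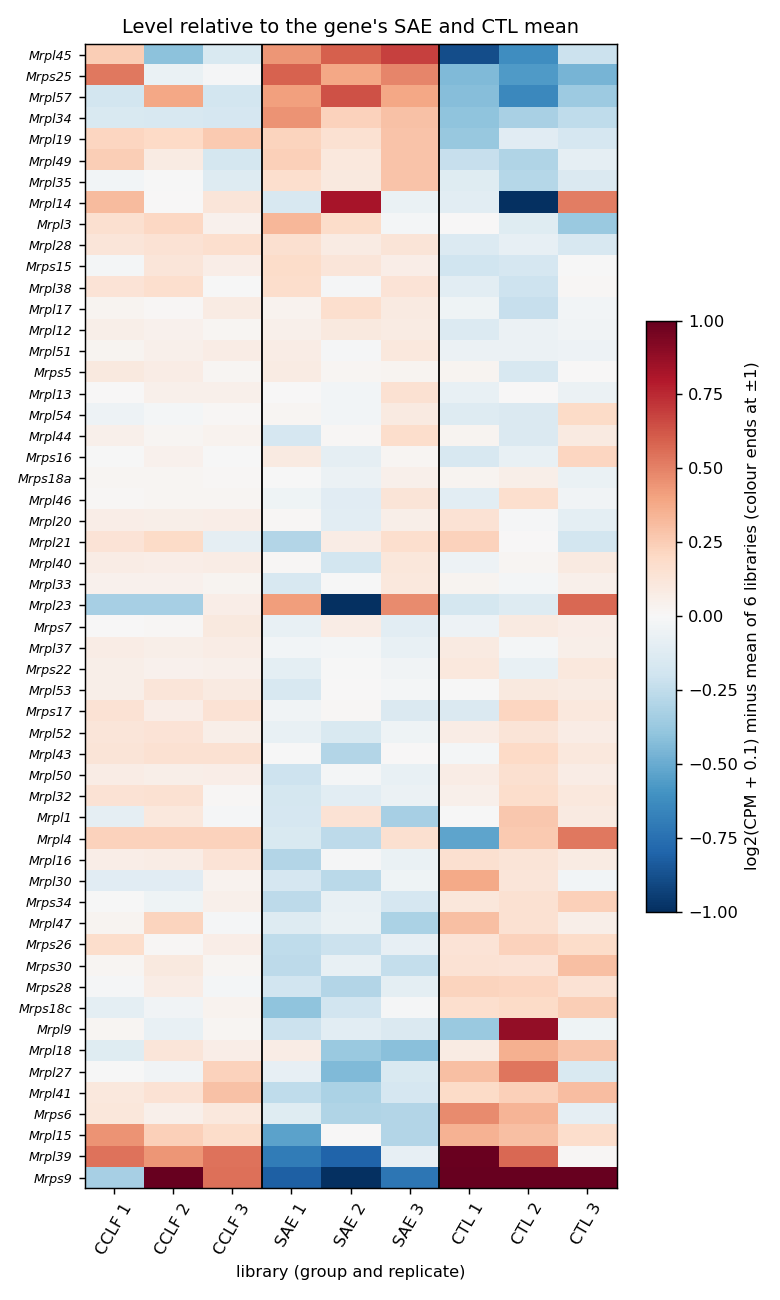
Log2(CPM + 0.1) of the 54 genes in 9 libraries, minus each gene's mean over the 6 SAE and CTL libraries, with genes in order of the SAE minus CTL fold and colours ending at 1 in either direction. SAE cells run from red at the top to blue at the bottom. Colours do not mark calls, and genes not called lie among the 12 higher and 14 lower ones. The 3 CCLF columns are mostly pale.

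For genes with several RefSeq rows, the rows did not always move together, as a fit of each row on its own showed; this fit was chosen after seeing the data. Of the rows of genes with several rows, 17 were fitted and 7 called. Over all 54 genes, those with 1 row included, it called 27 of 54 fitted rows, 12 higher and 15 lower, beside 47.4% of all 8539 rows. In Mrpl15 the curated row had 108, 158 and 135 counts in SAE libraries, against 106, 101 and 111 in CTL libraries, with a log2 fold of 0.32 ± 0.15 and an adjusted p of 0.0772. The predicted row had 23, 30 and 23 counts in SAE libraries, against 125, 137 and 105 in CTL libraries, with a log2 fold of -2.28 ± 0.19 and an adjusted p of 3.03e-10. The lower total of Mrpl15 in SAE libraries thus came from its predicted row.

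Mrps9 showed the same kind of split. Its fullest predicted row had 7, 2 and 4 counts in SAE libraries, against 38, 59 and 57 in CTL libraries, with a log2 fold of -3.54 ± 0.35 and an adjusted p of 5.90e-09. A second predicted row had 4, 1 and 8 counts in SAE libraries, against 0, 0 and 1 in CTL libraries. In Mrpl57 the predicted row had 17, 19 and 17 counts in SAE libraries, against 5, 6 and 4 in CTL libraries, a log2 fold of 1.78 ± 0.41 with an adjusted p of 0.000724. Its curated row had 2, 3 and 2 counts in SAE libraries, against 5, 3 and 7 in CTL libraries, too few to be fitted.

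In Mrpl21, which was not called as a gene, rows differed in sign. The curated row had 23, 29 and 43 counts in SAE libraries, against 21, 24 and 18 in CTL libraries, with a log2 fold of 0.57 ± 0.28 and an adjusted p of 0.0939. The predicted row had 12, 18 and 9 counts in SAE libraries, against 30, 22 and 20 in CTL libraries, with a log2 fold of -0.89 ± 0.33 and an adjusted p of 0.0299. In Mrpl45 the curated row had 14, 20 and 18 counts in SAE libraries, against 5, 7 and 7 in CTL libraries, so the row and the gene had the same direction (log2 fold 1.42 ± 0.39, adjusted p = 0.00398). Salmon divides reads that fit several transcripts among them by estimation, so counts of rows of 1 gene are not independent.

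**Figure D5:**
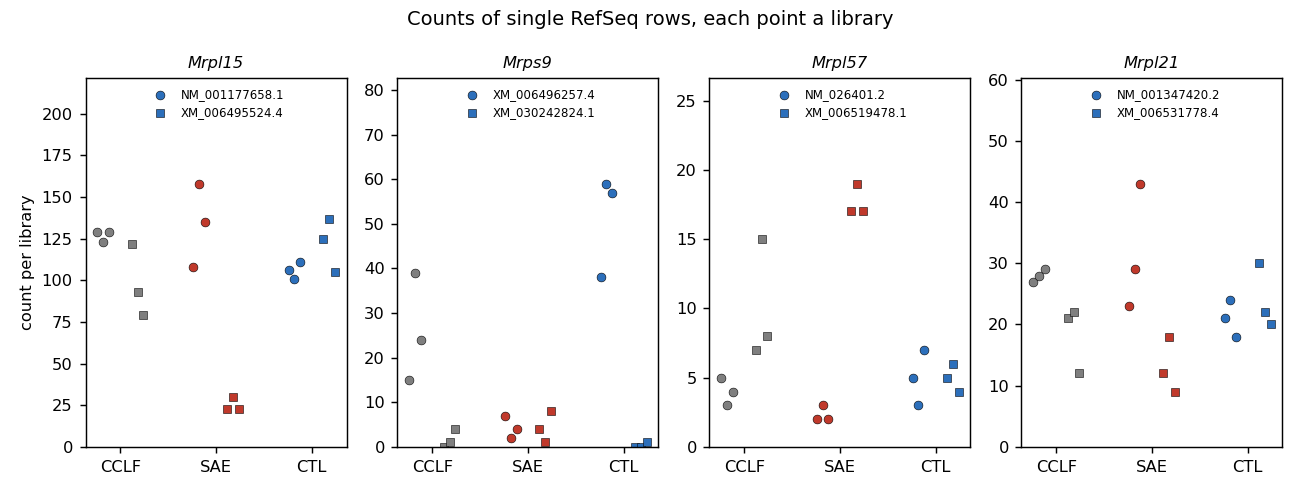
Counts of single RefSeq rows of Mrpl15, Mrps9, Mrpl57 and Mrpl21 in each CCLF, SAE and CTL library; each point is a library, each marker shape a row, and axes start at 0. In Mrpl15 the predicted row lies at 23 to 30 counts in SAE libraries and at 105 to 137 in CTL libraries, while its curated row lies at 108 to 158 in SAE libraries and 101 to 111 in CTL libraries.

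By the labels, the comparison of CCLF with SAE libraries sets mice with both CLP and the extract against mice with CLP alone. Lcn2 counts went against the SAE and CTL labels. This comparison can therefore be read as one of the extract only so far as those labels hold. It called 4 of the 54 genes, 7.41%, beside 8.34% of 7986 tested genes. Of the 4, 2 were higher in CCLF libraries and 2 lower, where 5.43% of all tested genes were higher and 2.91% lower. No gene of the 54 was called with a change over 2-fold, beside 3.41% of all tested genes, and groups did not overlap in 35.9% of all tested genes. The median log2 fold, CCLF minus SAE, was 0.04 over the 54 genes and -0.02 over all tested genes. Mrpl41 had 746, 765 and 851 counts in CCLF libraries, against 603, 568 and 650 in SAE libraries (log2 fold 0.39 ± 0.07, adjusted p = 0.013). Mrpl39 had 28, 26 and 28 counts in CCLF libraries, against 12, 11 and 19 in SAE libraries (log2 fold 0.97 ± 0.22, adjusted p = 0.0352). Both were higher in CCLF libraries, with no overlap of groups. Mrpl34 had 127, 127 and 126 counts in CCLF libraries, against 201, 170 and 183 in SAE libraries (log2 fold -0.53 ± 0.09, adjusted p = 0.0123). Mrpl35 had 384, 390 and 358 counts in CCLF libraries, against 456, 427 and 503 in SAE libraries (log2 fold -0.28 ± 0.07, adjusted p = 0.0478). Both were lower in CCLF libraries, again with no overlap. Without CCLF replicate 2 or 3, 2 of the 54 genes were called, beside 8.39% or 7.94% of all tested genes. With any SAE library left out 1 was called, and over all genes 154 to 180 were called in place of 666.

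All 4 genes called belong to the large subunit. In the small subunit 0 of 13 were called by edgeR, DESeq2 or limma-voom. With each tool 4 of the 13 had an unadjusted p under 0.05. The share of all tested genes at that unadjusted limit is not given here, so the 4 have no background beside them. The difference between the subunits was not tested. This comparison shares the SAE libraries with the first, so their folds are given side by side only. Mrps25 had 553, 366 and 381 counts in CCLF libraries, against 600, 514 and 568 in SAE libraries, and was not called. Its CCLF values lay above all CTL values.

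The spread of the CCLF libraries limits what these p-values can say. The ratio of the variance between libraries to the variance from counting was taken in 48 of the genes, with a mean of at least 20 counts. Its median was 0.211 in CCLF libraries, 1.27 in SAE libraries and 1.17 in CTL libraries, where counting error alone gives a median of 0.693. Over all genes at that level the medians were 0.538 in CCLF, 1.326 in SAE and 1.325 in CTL libraries. Mrpl20, a large-subunit protein picked out after its values were seen, shows a narrow CCLF spread. It had 631, 630 and 632 counts in CCLF libraries, against 632, 573 and 664 in SAE libraries and 661, 630 and 590 in CTL libraries. Values so close are below the spread that counting gives in independent libraries. The CCLF libraries were not copies of each other, as the counts of Lcn2 and Mrps25 show. With counts scaled to library totals alone, the CCLF mean lay between the SAE and CTL means in 40 of the 54 genes. The median distance of the CCLF mean from the midpoint of the other two was then 0.04 on the log2 scale. Between the SAE and CTL means it was 0.23. With TMM factors the placing of some genes changed. The CCLF mean of Mrpl19, 107.0 CPM, then lay outside 106.7 in SAE and 78.9 in CTL libraries. That of Mrpl54, 49.62 CPM, then lay between 51.31 in SAE and 49.57 in CTL libraries. No such count was made over all genes. Why the CCLF values are this close was not tested.

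Other genes of mitochondrial protein synthesis were counted from lists chosen by function, with 47.6% of all tested genes called between SAE and CTL libraries as the background. Of 5 mitochondrial ribosomal proteins with other symbols, 4 were tested and 0 called by edgeR, DESeq2 or limma-voom, with 0 at an unadjusted p under 0.05. Chchd1 had 306, 287 and 288 counts in SAE libraries, against 311, 279 and 347 in CTL libraries, and Gadd45gip1 had 385, 377 and 373 counts in SAE libraries, against 332, 386 and 380 in CTL libraries. Their log2 folds were -0.10 ± 0.10 and 0.03 ± 0.08, and those of the low-count Ptcd3 and Aurkaip1 were -0.24 ± 0.34 and 0.44 ± 0.38. The groups of Chchd1 and of Gadd45gip1 overlapped.

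Of 26 factors that assemble the ribosome, 16 were tested, 3 were higher in SAE libraries and 4 lower. Malsu1, which acts late in maturation of the large subunit, had 109, 98 and 85 counts in SAE libraries, against 45, 59 and 49 in CTL libraries (log2 fold 0.92 ± 0.17, adjusted p = 0.000113). Fastkd2, which binds the RNA of the large subunit, had 33, 30 and 20 counts in SAE libraries, against 6, 19 and 5 in CTL libraries (log2 fold 1.44 ± 0.39, adjusted p = 0.0045). Ddx28, a helicase of large-subunit assembly, had 212, 222 and 227 counts in SAE libraries, against 297, 345 and 285 in CTL libraries (log2 fold -0.50 ± 0.10, adjusted p = 0.000175). These 3 genes, all of large-subunit assembly, had groups that did not overlap and differed in direction. Noa1, a GTPase, had 3, 11 and 9 counts in SAE libraries, against 26, 11 and 20 in CTL libraries, and its groups overlapped (log2 fold -1.31 ± 0.43, adjusted p = 0.0149). The call of Noa1 was lost with DESeq2's Wald test (adjusted p = 0.0538) and without SAE replicate 1 (0.0959) or CTL replicate 1 (0.12).

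Of 16 translation factors and their partners, 9 were tested, 1 was higher and 2 lower. Taco1, an activator of translation of the COX1 message, had 75, 85 and 88 counts in SAE libraries, against 32, 22 and 42 in CTL libraries (log2 fold 1.35 ± 0.21, adjusted p = 8.99e-06). Oxa1l, which inserts new proteins into the inner membrane, had 846, 782 and 821 counts in SAE libraries, against 978, 1011 and 990 in CTL libraries (log2 fold -0.30 ± 0.06, adjusted p = 0.000116). Neither gene's groups overlapped. Mtfmt, which formylates the initiator transfer RNA, had 193, 193 and 187 counts in SAE libraries, against 209, 261 and 227 in CTL libraries (log2 fold -0.30 ± 0.11, adjusted p = 0.0254). That call was lost in 5 of 15 alternatives: with DESeq2's Wald test (adjusted p = 0.067), without SAE replicate 1, 2 or 3 (0.0577, 0.0549 or 0.0795) and without CTL replicate 2 (0.137). Guf1, a GTPase that binds the ribosome, was not called (log2 fold -0.52 ± 0.27, adjusted p = 0.115).

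Of 20 mitochondrial aminoacyl-tRNA synthetases, which charge transfer RNAs, 8 were tested. Iars2 was lower in SAE libraries, with its groups apart: it had 467, 465 and 592 counts in SAE libraries, against 631, 628 and 688 in CTL libraries (log2 fold -0.37 ± 0.08, adjusted p = 0.000425). Ears2 and Nars2 were not called, at log2 folds of 0.34 ± 0.17 and 0.73 ± 0.36. Of 10 genes that copy or transcribe mitochondrial DNA, 3 were tested and 1 was called. That gene, Twnk, the replicative helicase, had 203, 171 and 180 counts in SAE libraries, against 121, 114 and 127 in CTL libraries (log2 fold 0.60 ± 0.12, adjusted p = 0.00029). Tfam, which packages mitochondrial DNA, and Mterf1b, of the family of transcription terminators, were not called, at log2 folds of -0.20 ± 0.25 and 0.54 ± 0.24.

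Of 8 regulators of mitochondrial gene expression in the nucleus, 2 were tested and both were called, in opposite directions. Gabpa and Nrf1, whose motifs were searched above, had means of 0 and 0.67 counts over the 9 libraries and were not tested. Gabpb1, the partner subunit of GABPA, had 6, 10 and 17 counts in SAE libraries, against 26, 34 and 24 in CTL libraries (log2 fold -1.35 ± 0.34, adjusted p = 0.00198). Its fold rests on few counts, summed over 27 RefSeq rows. Yy1 had 1376, 1346 and 1364 counts in SAE libraries, against 1200, 1240 and 1276 in CTL libraries (log2 fold 0.12 ± 0.05, adjusted p = 0.0471). The call of Yy1 was lost in 11 of 14 alternatives, with adjusted p between 0.0148 and 0.145 over the 14. Neither gene's groups overlapped. How their levels bear on the ribosomal genes was not tested.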

How the data were processed

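The authors deposited 1 table of whole-number counts per RefSeq transcript for 9 libraries. Reads were handled with fastp and Salmon, per the submitters' processing notes. Versions, settings, build, strand use and the splitting of shared reads were not given in the sources used here. All 120312 rows were matched to 38911 genes with the RefSeq table of GRCm38.p6, used for names, and summed. Totals were 4626519 to 4895474 counts per library, so genes with few counts had wide errors.

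SAE was compared with CTL, and CCLF with SAE, each on its own 6 libraries, with edgeR 4.0.16 in R 4.3.3 (filterByExpr by group, TMM factors, robust quasi-likelihood F test, Benjamini-Hochberg adjustment over all tested genes, calls at an adjusted p under 0.05). Each SE was computed as the absolute log2 fold over the root of its F statistic. CPM levels of single genes use TMM factors over 9 libraries. The marker sums, and the place of the CCLF mean between the SAE and CTL means, use library totals alone. In simulated data for SAE against CTL on 8048 genes, the fit called 92% of 100 genes changed by a log2 fold of 1 and 73% of 100 changed by 0.5, with 7 false calls. No other gene was changed there, and every gene was drawn with the same dispersion. In the data 47.6% of tested genes were called, so these rates do not carry over to them.

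The members, the lists, the tests and the promoter motifs were chosen with earlier results of these data known. Genes named are the 8 highest and 8 lowest folds among the called members, the 3 members with the most CPM, the stalk genes, the Mrps18 paralogues and Mrps30, and up to 4 genes of smallest p in each other list; names outside this rule were chosen after their values were seen, and 1 gene that the rule takes is not reported here. Same-numbered SAE and CTL libraries deviated together with correlations of 0.026, -0.013 and 0.023, so numbers were not taken as pairs. Alternatives were DESeq2 1.42.0 size factors and Wald test, limma-voom 3.58.1, no filter, a minimum of 1 CPM in 3 libraries, all 9 libraries, a replicate block, genes with 1 RefSeq row, thinning to the smallest total, and each library left out; a fit of single rows was added after seeing the data.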

Additional observations from a re-analysis of the deposited data

How the results depend on the processing

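The number of ribosomal protein genes called between SAE and CTL libraries was 26, beside 47.6% of all tested genes. It ran between 18 (6 higher, 12 lower) with DESeq2's Wald test and 29 (13 higher, 16 lower) in the fit of all 9 libraries. Of all tested genes, 38.8% and 50.9% were called in those fits. Where no filter was used 23 were called, beside 18.3% of all 22846 genes. Among genes with 1 RefSeq row fitted alone, 20 of 37 were called, beside 53.7% of all such genes. With single libraries left out the number of the 54 called ran between 17 and 25. The 17 (8 higher, 9 lower), without CTL replicate 1, stood beside 40.8% of all genes called. The 25, without CTL replicate 3, stood beside 45.5%. With the replicate block 24 were called (10 higher, 14 lower), beside 47.4% of all genes. Same-numbered libraries share only a number, and not every library correlated best with its own number. The median log2 fold stayed between -0.09 and -0.01. Between CCLF and SAE libraries 4 were called, beside 8.34% of all genes. With DESeq2's Wald test 2 were called, beside 7.0% of all genes. The fit of all 9 libraries called 7, beside 11.3%, and the block 3, beside 9.17%. With single libraries left out between 1 and 4 were called, beside 1.86 to 8.43% of all genes. The median was 0.084 without the filter, against 0.04, and between 0.03 and 0.07 with single libraries left out. Over all genes, 173, 154 and 180 were called without SAE replicates 1, 2 and 3. The causes were not tested.

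Of 31 named genes called, 21 were called in every alternative with a value and 0 reversed. Genes that were not called changed sign in 5 values: Mrps18a had a log2 fold of 0.0155 among genes with 1 RefSeq row and of -0.0577 to 0.0224 with single libraries left out, where Ptcd3 had -0.6342 to 0.0355 and Gadd45gip1 -0.0097 to 0.0631. Depth limits the genes with several RefSeq rows most, whose SE reached 0.41 on the log2 scale, and the 24 genes under 10 counts were not tested as members.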
